A study of Mus musculus with 12 samples.

Results

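The interaction of lipopolysaccharide (LPS) and bovine lactoferrin (bLF) in mouse lung RNA was measured gene by gene. It is the bLF effect in mice given LPS, LPS+bLF minus LPS, less the bLF effect in mice without LPS, bLF minus control, on the log2 scale. It needs every library of the series, so 12 of 12 libraries entered it. A gene was taken when its level was at least 0.5 FPKM (fragments scaled to transcript length and library size) in 3 or more of the 12 libraries, which gave 13735 of 17920 genes. A value of 0 means that the log2 effects of both agents added up. A negative value means that, by the group means of the fit, LPS+bLF stood below the level at which they would add. A positive value means that it stood above it. Levels of added effects printed below use geometric means of FPKM instead. Such a level need not match the value where libraries of a group spread. Tnf had -0.19, though its LPS+bLF geometric mean was at 1.53 times that level.

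All mice were male BALB/c, 6 to 8 weeks old and 20 g by the labels, with no engineered allele named. The labels describe 24 mice divided into 4 groups of 6, of which 3 per group were sequenced, 1 library of polyadenylated lung RNA per mouse, after 14 days of modelling. Control mice received neither agent as far as the labels state. LPS mice received 50 µL of LPS at 1 µg/µL, and bLF mice received bLF at 200 mg/kg per day. LPS+bLF mice received both. Their treatment field is spelled LBS+BLF where their titles read LPSBLF, and the doses are not repeated for that group. The labels used here state neither the route and day of LPS nor how the controls were handled, and nothing marks a shared cage, litter or extraction batch.

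LPS is a glycolipid in the outer membrane of bacteria such as Escherichia coli. It is passed by LPS-binding protein and CD14 to the receptor TLR4 with its partner MD-2, from where adaptor kinases switch on NF-kB and interferon genes, and in lung it is a standard trigger of neutrophil and monocyte entry. Lactoferrin is an iron-binding glycoprotein of milk and of neutrophil granules that also binds LPS and CD14, and LRP1 and the asialoglycoprotein receptor are among the surface proteins known to bind it. The bLF given was bovine protein, so it adds no mouse Ltf transcript. In a layout with both agents alone and together, the interaction asks whether bLF acts differently on lung RNA when LPS has been given.

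Library totals ranged from 16714327 to 17820645 expected counts, and at a count of 0 the upper limit of a gene's level was 0.168 to 0.179 CPM (3 counts over the library total, for counting error only). The markers of lung epithelium, endothelium and leukocytes were present in all 12 libraries, with Sftpc, a surfactant gene of alveolar type 2 cells, at 43000 to 166276 FPKM. Some libraries stood apart. LPS replicate 1 had 3067 genes at 0 against 1499 to 1963 in the others, its median rank correlation with the other libraries was 0.939 against 0.962 to 0.985, and Marco, a scavenger receptor of alveolar macrophages, was at 249 FPKM in it against a median of 0.725 over the 12 libraries. Marco was also at 36.4 FPKM in LPS+bLF replicate 2, and at 0.24 to 1.8 in the rest. In control replicate 2 the club cell gene Scgb1a1 took 23.8% of all counts, against 3.81 to 9.37% for the top gene of each other library. Markers of tissues next to lung were high in some libraries. The brown fat gene Ucp1 was at 158 FPKM in LPS+bLF replicate 2, 88.1 in control replicate 1 and 57.4 in bLF replicate 1, and at most 0.2 in the other 9. The skeletal muscle gene Ckm reached 807 in LPS+bLF replicate 3, 155 in LPS+bLF replicate 2 and 139 in bLF replicate 1, and the atrial gene Nppa 89 in LPS+bLF replicate 2 and 829.9 in bLF replicate 1. Another heart gene, Myl7, was more widespread, from 0.97 to 1832 FPKM with a median of 84.4 over the 12 libraries. It was at 1832 in bLF replicate 1, 1582 in LPS+bLF replicate 2, 400 in control replicate 1 and 295 in control replicate 2. LPS replicate 3 had 162 and bLF replicate 3 had 128. The squamous keratin Krt4 was at 335 in LPS+bLF replicate 3 and at most 0.13 elsewhere. The liver gene Alb stayed at or under 0.65 FPKM and the thymus gene Rag1 at or under 0.01. Since any 1 library enters the contrast with the weight of its group, results that rest on these libraries are given with and without them. In bulk RNA, fewer cells of a type and less RNA per cell cannot be told apart.

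No gene showed an interaction that passed the threshold of an adjusted p under 0.05 (edgeR's quasi-likelihood test, Benjamini-Hochberg over 13735 genes). That is 0 of 13735, or 0%, in either direction, and the smallest adjusted p was 1 after rounding. At an unadjusted p under 0.05 there were 384 genes, 2.80% of those tested, with 211 negative (1.54%) and 173 positive (1.26%). That share is below the 0.05 that this threshold would let through on average if no gene had an interaction. limma on log2(FPKM + 1) called 0 genes with 270 at an unadjusted p under 0.05, limma voom called 0 with 290, and DESeq2 called 1 (0.00728%, Gm10499, adjusted p = 0.0175) with 512. The count of 384 moved with single libraries: it was 757 without LPS replicate 3, 206 without bLF replicate 3, 214 without LPS+bLF replicate 2 and 219 without bLF replicate 2. A threshold missed does not show that the effects added up. The median SE of the interaction was 0.395 log2 units, against about 0.28 for each of the 4 differences between pairs of groups, and the 5th and 95th percentiles of the interaction lay at -0.81 and 1.03. Over all tested genes 52.6% of the interactions were positive and the median was 0.02.

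The groups the contrast is made of were also compared pair by pair in the same fit, and each gave 0 calls (edgeR, 0%). At an unadjusted p under 0.05 there were 189 genes for bLF versus control (1.38%, with 0.714% higher and 0.663% lower) and 950 for LPS+bLF versus LPS (6.92%, with 3.27% higher and 3.65% lower). There were 980 for LPS versus control (7.14%, with 5.52% higher and 1.62% lower) and 366 for LPS+bLF versus bLF (2.66%, with 1.65% higher and 1.02% lower). These 4 comparisons share libraries with each other, so their counts are set side by side only.

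**Figure D1:**
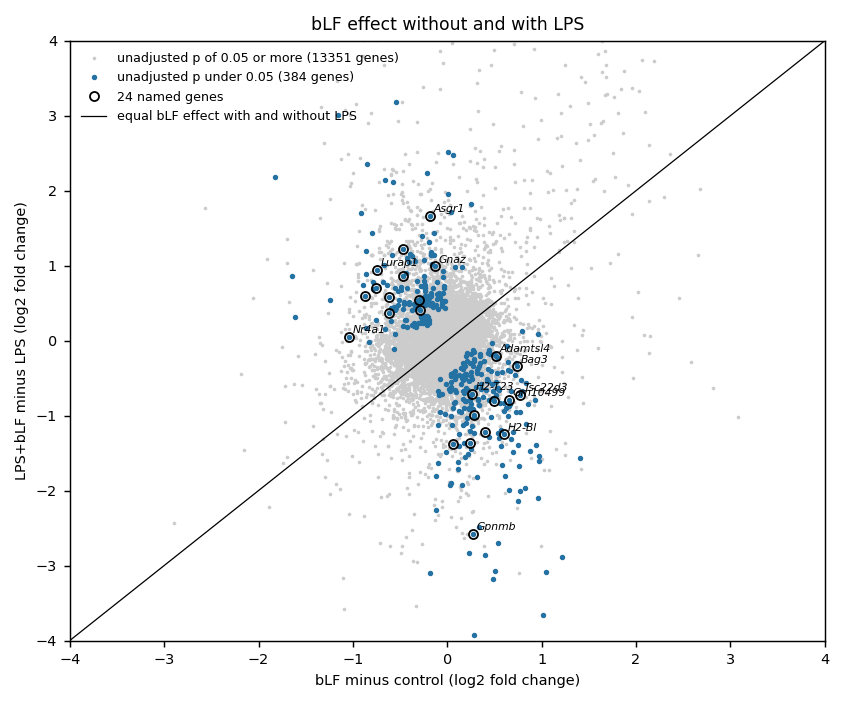
Each point is 1 of 13735 genes, placed by its log2 fold change of bLF minus control (x axis) and of LPS+bLF minus LPS (y axis). The line marks equal bLF effects, blue points are the 384 genes at an unadjusted p under 0.05 in the interaction, open circles the 24 named genes, and 106 genes lie beyond the axes. The blue points sit mostly in the upper left and lower right, where the bLF effects have opposite signs.

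What the groups looked like behind those 384 genes is a description, since the genes were picked by the contrast itself. Of the 211 with a negative value, the LPS group was the farthest from the mean of the other 3 groups in 134 (63.5%), always above them. LPS+bLF lay farthest, below the others, in 29, control below in 28 and bLF above in 20. Of the 173 with a positive value, LPS lay farthest, below the others, in 82 (47.4%), LPS+bLF above in 55 (31.8%), control above in 26 and bLF below in 10. LPS was thus the farthest group in 216 of the 384 (56.25%), against 39.2% of all tested genes. With LPS replicate 1 left out of its group mean it was the farthest in 157 of the 384 (40.9%), against 26.6% of all tested genes, and a refit without that library gave 466 genes at an unadjusted p under 0.05, of which 220 are among the 384. The bLF effects with and without LPS had opposite signs in 355 of the 384 (92.5%), against 48.4% of all tested genes.

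The 12 negative and the 12 positive genes with the smallest p, among those averaging 1 FPKM or more, are described first. In the negative direction unadjusted p ran from 0.000343 to 0.00435 and in the positive direction from 0.00195 to 0.00954, with an adjusted p of 1 after rounding for each in edgeR's test. All 24 had the same sign on the linear FPKM scale as on the log2 scale, and all kept their sign in the 27 settings tried, omissions of single libraries included. They were picked for a small p in the same libraries, so a kept sign is no independent support.

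The genes leading the negative side belonged to the major histocompatibility complex (MHC) class I region. Class I molecules carry peptides to the cell surface with beta-2-microglobulin, and their genes are among the classic targets of interferons. Of the 12 genes, 5 lie on chromosome 17 between positions 35379617 and 36146200 (mm10): H2-T23 (36029977 to 36032701), which encodes Qa-1, the ligand of the inhibitory NK cell receptor CD94/NKG2A, H2-Q4 (35379617 to 35384674), a class Ib gene, H2-Bl (36080110 to 36084249), annotated as a transcribed pseudogene, and the predicted protein-coding genes Gm11127 (36055816 to 36058371) and Gm10499 (36141748 to 36146200). Promoter windows are shown for the 4 that have one in the RefSeq set, since these genes are neighbours. H2-Bl has none. Each window holds the 250 bases before the transcript start (GRCm38.p6, 5′ to 3′ on the gene's strand). The shared sign of the 5 genes follows from the choice of negative ones. Capitals mark CCAAT (also ATTGG, its other strand) and GAAANNGAA (also TTCNNTTTC), a core of the interferon-stimulated response element.
H2-T23: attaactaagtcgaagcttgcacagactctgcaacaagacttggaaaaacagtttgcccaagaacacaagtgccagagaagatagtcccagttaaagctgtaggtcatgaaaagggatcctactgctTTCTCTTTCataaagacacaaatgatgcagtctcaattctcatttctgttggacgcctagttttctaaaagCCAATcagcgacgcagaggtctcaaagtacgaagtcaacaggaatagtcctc
H2-Q4: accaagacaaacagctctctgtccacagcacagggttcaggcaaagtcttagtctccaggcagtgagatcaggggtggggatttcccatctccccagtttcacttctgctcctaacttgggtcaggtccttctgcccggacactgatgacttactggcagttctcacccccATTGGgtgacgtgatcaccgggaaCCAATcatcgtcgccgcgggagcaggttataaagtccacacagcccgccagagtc
Gm11127: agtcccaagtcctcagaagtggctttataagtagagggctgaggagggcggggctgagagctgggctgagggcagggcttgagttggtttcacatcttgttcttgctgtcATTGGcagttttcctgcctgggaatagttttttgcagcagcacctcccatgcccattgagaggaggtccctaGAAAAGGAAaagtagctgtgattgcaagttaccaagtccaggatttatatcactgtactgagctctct
Gm10499: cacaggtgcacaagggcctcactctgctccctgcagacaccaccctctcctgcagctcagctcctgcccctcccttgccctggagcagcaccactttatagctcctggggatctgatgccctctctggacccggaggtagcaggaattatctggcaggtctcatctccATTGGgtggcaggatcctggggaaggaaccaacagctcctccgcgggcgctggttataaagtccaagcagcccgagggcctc
H2-T23 lies on the minus strand (window chr17:36032702-36032951), as do Gm11127 (chr17:36058372-36058621) and Gm10499 (chr17:36145950-36146199), and H2-Q4 lies on the plus strand (chr17:35379367-35379616). All 4 windows hold a CCAAT match, which 33.85% of the 32851 RefSeq windows of the same length hold. H2-T23 and Gm11127 hold both motifs, as 2.42% of windows do (7.129% hold the second), with the GAAANNGAA match beginning 123 and 68 bases before the start. A match is a string of letters in a window and not a measured site.

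Gm10499 was listed at 25.8, 14 and 26.4 FPKM in control, 38.8, 51.7 and 61.7 in LPS, 37.9, 28.6 and 34.2 in bLF, and 31.8, 30.2 and 26.4 in LPS+bLF. All 3 LPS libraries lay above the other 9, and bLF alone lay above control, yet LPS+bLF overlapped bLF alone. The geometric mean with both agents was 29.4 FPKM where 78.5 would have been the sum of the log2 effects, and the interaction was -1.44 ± 0.28 (log2 ± SE). H2-Bl was at 10.2, 6.87 and 11.4 FPKM in control, 35.9, 21.3 and 28.9 in LPS, 17.1, 12 and 13.1 in bLF, and 12.7, 12.9 and 11.8 in LPS+bLF, with every LPS library above every other library and LPS+bLF overlapping bLF alone. Its interaction was -1.86 ± 0.38. H2-T23 was the most abundant of the 5, at 155, 114 and 155 FPKM in control, 201, 256 and 339 in LPS, 147, 188 and 165 in bLF, and 176, 159 and 153 in LPS+bLF. Again the LPS libraries were the 3 highest of the 12 and the other groups overlapped, with an interaction of -0.97 ± 0.25. Gm11127 averaged 4.45 ± 0.47 (control), 9.41 ± 2.25 (LPS), 5.36 ± 0.28 (bLF) and 4.73 ± 0.62 (LPS+bLF) FPKM (mean ± SD, 3 mice per group), with LPS above all other libraries and an interaction of -1.28 ± 0.29.

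H2-Q4 differed from these 4 in LPS replicate 1. It was at 53.5, 42.4 and 49.1 FPKM in control, 51.6, 116 and 152 in LPS, 77.7, 67.1 and 57.4 in bLF, and 66.7, 57.5 and 53.7 in LPS+bLF, so that 2 of the LPS libraries were the highest of the 12 and the third sat inside the control range. Its interaction was -1.31 ± 0.37. Class I genes resemble each other closely in sequence, Gm10499 overlaps Gm8909 and 2410017I17Rik, Gm11127 overlaps Gm6034 and Gm20950, and H2-T23 overlaps A930015D03Rik, so how the authors' counting split reads among them is uncertain. Across the same interval of chromosome 17, which was chosen after the values were seen, 12 tested H2 and predicted class I genes all had a negative value (median -0.85, 6 at an unadjusted p under 0.05). These include the 5 genes that were picked for their small p and that set the interval. Without them there were 7 genes, all negative, with a median of -0.70 and 1 at an unadjusted p under 0.05 (H2-T10), and of the 22 other tested genes 11 had a negative value (median -0.0079, 1 at an unadjusted p under 0.05).

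**Figure D2:**
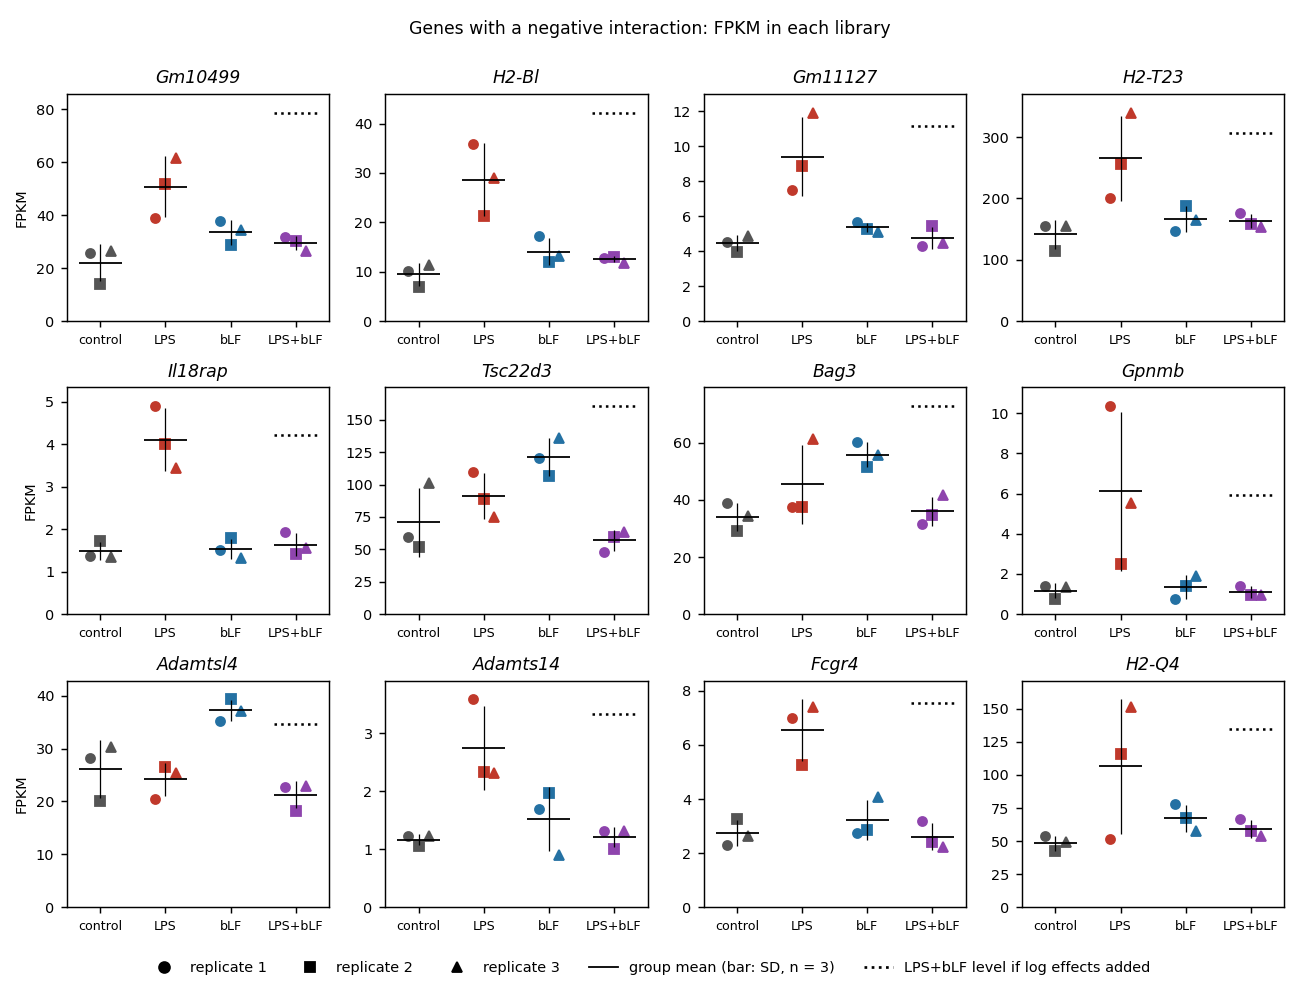
FPKM (y axes, from 0) in each library of the 4 groups (x axes) for the 12 genes with the smallest p among negative interactions; horizontal lines are group means with SD bars (3 mice), and dotted lines are the LPS+bLF level if log2 effects added. LPS stands alone and high for 8 genes such as H2-Bl and Il18rap, bLF is the highest group for Tsc22d3, Bag3 and Adamtsl4, and LPS+bLF lies under the dotted line in all 12.

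In the wider list for MHC class I presentation, 20 of 20 genes were tested and 0 called. For this and later lists, the shares over all tested genes are 2.80% at an unadjusted p under 0.05 and 52.6% positive. The interaction was negative in 17, with a median of -0.42 against 0.02 over all tested genes, and between -0.49 and -0.30 when any 1 library was left out. The 4 members at an unadjusted p under 0.05 were H2-T23, H2-Q4, H2-D1 (-0.96 ± 0.38) and H2-T10 (-0.70 ± 0.20), the last 2 named after their values were seen. The list's mean log2 CPM relative to control was -0.00, 0.53 and 0.77 in the LPS libraries, 0.20 to 0.26 with bLF and 0.21 to 0.40 with LPS+bLF. LPS replicate 1 thus lay at the control level while its groupmates were the highest libraries of the series. The MHC class II list had no such lean (5 of 14 positive, median -0.18, 0.23 without LPS replicate 3 and 0.20 with limma on log2(FPKM + 1)). Its leading members were Ctss, the cathepsin that trims the invariant chain, with 81.6 ± 28.3 (control), 228 ± 49.7 (LPS), 95.7 ± 11.8 (bLF) and 132 ± 18.6 (LPS+bLF) FPKM and an interaction of -1.09 ± 0.33, and H2-Ob, a B cell chaperone of peptide loading, with 1.54 ± 0.69 (0.97 without LPS+bLF replicate 2). H2-Ob was low, at 1.34 ± 0.54 (control), 1.06 ± 0.44 (LPS), 0.99 ± 0.28 (bLF) and 2.21 ± 1.21 (LPS+bLF) FPKM.

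Il18rap, the accessory chain of the interleukin-18 receptor on NK and T cells, was at 1.37, 1.73 and 1.35 FPKM in control, 4.89, 4.00 and 3.43 in LPS, 1.5, 1.79 and 1.33 in bLF, and 1.93, 1.41 and 1.55 in LPS+bLF. The 3 LPS libraries exceeded all 9 others, which overlapped among themselves, and the interaction was -1.44 ± 0.37. It was the leading member of the NK and cytotoxic lymphocyte list, in which 16 of 17 tested genes were negative, 2 had an unadjusted p under 0.05 and the median was -1.12. The second was Il2rb, the interleukin-2 receptor beta chain, with 2.1 ± 0.16 (control), 4.31 ± 1.72 (LPS), 2.82 ± 0.18 (bLF) and 2.95 ± 0.89 (LPS+bLF) FPKM and -1.08 ± 0.47. This list split the LPS group: its mean log2 CPM relative to control was -1.95 in LPS replicate 1 and 1.66 and 1.63 in replicates 2 and 3, while the bLF libraries lay at 0.04 to 0.32 and the LPS+bLF libraries at -0.05 to 0.49. Leaving out LPS replicate 1 gave a median of -1.43, and leaving out LPS replicate 3 gave -0.78. With limma on log2(FPKM + 1), which averages logs, it was -0.52.

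Nkg7, a cytotoxic granule gene chosen after its values were seen, shows that split in single values. It stood at 18.3, 13.1 and 17.9 FPKM in control, 3.74, 62.6 and 59 in LPS, 25.4, 26.2 and 24 in bLF, and 28.2, 31.2 and 25.9 in LPS+bLF, so LPS replicates 2 and 3 were the highest of the series and LPS replicate 1 the lowest. Its interaction was -1.13 ± 0.87 with all libraries. It was -1.65 without LPS replicate 1 (adjusted p = 0.0583, edgeR), -0.77 without LPS replicate 2, -0.75 without LPS replicate 3, and -0.44 with limma on log2(FPKM + 1). Without LPS replicate 1 and LPS+bLF replicate 2, an omission added after seeing the data, Nkg7 (-1.75) and the chemokine Ccl5 (-2.31) were the 2 genes called (0.0146%), each at an adjusted p of 0.0465 in edgeR's test. With all libraries Ccl5 averaged 67.2 ± 11.6 (control), 214 ± 173 (LPS), 96.9 ± 15.3 (bLF) and 119 ± 51.9 (LPS+bLF) FPKM and its interaction was -1.31 ± 1.00, between -1.85 and -0.92 under single omissions and -0.55 with limma on log2(FPKM + 1). Gzma, Prf1 and Tbx21, likewise chosen after their values were seen, encode a granzyme, perforin and the T-bet transcription factor, and had interactions of -1.43 ± 1.03, -1.22 ± 1.10 and -1.52 ± 0.85. Under single omissions they lay between -1.98 and -0.95, -1.78 and -0.82, and -2.02 and -1.15. With limma on log2(FPKM + 1) they were -0.45, -0.52 and -0.72. For Prf1 the geometric mean with LPS+bLF was 3.00 FPKM against 2.98 for added log2 effects, and its value was -0.17 with limma on log2(FPKM + 0.1). In each of the 3 genes LPS replicate 1 was the lowest library and LPS replicates 2 and 3 the highest. T cell markers leaned the other way with no member at an unadjusted p under 0.05 (14 of 17 positive, median 0.35, and -0.08 without LPS+bLF replicate 2).

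Macrophage genes made up the next group. Gpnmb, a glycoprotein of phagocytic, lipid-laden macrophages, was at 1.39, 0.73 and 1.37 FPKM in control, 10.3, 2.51 and 5.52 in LPS, 0.76, 1.39 and 1.91 in bLF, and 1.42, 0.93 and 0.95 in LPS+bLF. All 3 LPS libraries were above all others but spread over a wide range, and the interaction was -2.84 ± 0.76, and between -3.25 and -2.05 when any 1 library was left out. Fcgr4, an activating receptor for IgG on monocytes, was at 2.3, 3.28 and 2.65 FPKM in control, 6.98, 5.25 and 7.4 in LPS, 2.75, 2.84 and 4.08 in bLF, and 3.18, 2.43 and 2.23 in LPS+bLF, with no overlap between LPS and any other group and an interaction of -1.60 ± 0.45. Of the 30 monocyte and interstitial macrophage markers, all tested, 26 were negative and 10 had an unadjusted p under 0.05, all of them negative. Over all tested genes 1.54% were negative at that threshold. The median of these markers was -0.71, from -0.92 to -0.58 under single omissions. Their mean log2 CPM relative to control was 0.80 to 1.16 with LPS, -0.04 to 0.20 with bLF and 0.14 to 0.51 with LPS+bLF, without overlap between LPS and either other group. Unlike the NK list, LPS replicate 1 lay with its group here.

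Ms4a7, a marker of interstitial macrophages, was at 1.14, 1.33 and 1.77 FPKM in control, 5.31, 6.6 and 7.61 in LPS, 1.64, 0.94 and 1.34 in bLF, and 2.78, 2.55 and 3.61 in LPS+bLF, with LPS highest, LPS+bLF between and control and bLF lowest. Its interaction was -1.04 ± 0.42. Trem2, a lipid receptor of macrophages chosen after its values were seen, averaged 8.24 ± 1.91 (control), 35.2 ± 17.2 (LPS), 8.78 ± 2.23 (bLF) and 11.5 ± 4.53 (LPS+bLF) FPKM with -1.84 ± 0.60 (-1.18 without LPS replicate 1). Among alveolar macrophage markers 13 of 20 were negative (median -0.51, and -0.10 without LPS replicate 3), led by Atp6v0d2, a proton pump subunit, at -1.30 ± 0.40 and the protease gene Ctsk at -1.48 ± 0.47. Atp6v0d2 averaged 5.41 ± 1.41 (control), 11.3 ± 2.1 (LPS), 6.02 ± 1.68 (bLF) and 5.38 ± 1.41 (LPS+bLF) FPKM. Ctsk was at 8.32, 9.86 and 7.79 FPKM in control, 46.2, 20.8 and 33 in LPS, 8.06, 7.69 and 9.91 in bLF, and 16.1, 9.78 and 11.7 in LPS+bLF, with the LPS libraries above all others. In the complement list 16 of 22 were negative (median -0.39, from -0.61 to -0.23 under omissions) and 6 had an unadjusted p under 0.05, 4 of them negative (C1qb, Itgam and, named after their values were seen, C1qa and C3ar1) and 2 positive (Cfd and Cr2, which are given with the fat and B cell genes). C1qb, a chain of the C1q recognition protein made by macrophages, averaged 28.3 ± 6.44 (control), 65 ± 13.7 (LPS), 38.4 ± 3.07 (bLF) and 49 ± 14.8 (LPS+bLF) FPKM with -0.87 ± 0.33, C1qa, chosen after its values were seen, had -0.70 ± 0.32, and Itgam, a chain of complement receptor 3, had -0.89 ± 0.34. For C1qb the ranges of LPS and LPS+bLF overlapped through LPS+bLF replicate 2, at 65.9 FPKM. C1qa averaged 53.4 ± 11.2 (control), 111 ± 20 (LPS), 65.9 ± 5.96 (bLF) and 86.1 ± 25.8 (LPS+bLF) FPKM. Itgam averaged 2.04 ± 0.43 (control), 4 ± 0.46 (LPS), 2.12 ± 0.49 (bLF) and 2.29 ± 0.49 (LPS+bLF) FPKM.

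Neutrophil and acute-phase genes rested on single libraries. Ltf, the mouse lactoferrin gene and a neutrophil granule gene, was at 2.02, 3.06 and 1.09 FPKM in control, 60.1, 5.78 and 2.58 in LPS, 113, 1.44 and 3.33 in bLF, and 2.94, 6.27 and 3.55 in LPS+bLF. LPS replicate 1 and bLF replicate 1 were far above the other 10 libraries, and the interaction of -6.80 ± 2.24 became -4.06 without the first and -2.82 without the second. The neutrophil list had 18 of 20 negative with a median of -0.92, which was 0.44 without LPS replicate 1. Fpr2, a chemoattractant receptor, was steadier at 9.1 ± 1.02 (control), 20.4 ± 5.91 (LPS), 9.46 ± 2.85 (bLF) and 11.5 ± 3.24 (LPS+bLF) FPKM and -0.91 ± 0.40. Saa3, an acute-phase protein of lung, was at 30.9, 103 and 21.4 FPKM in control, 3021, 36.2 and 30.4 in LPS, 48.8, 18 and 9.4 in bLF, and 21.2, 236 and 54.4 in LPS+bLF, and its interaction of -2.48 ± 2.23 turned to 2.86 without LPS replicate 1. Pglyrp1, a granule protein that binds peptidoglycan, had -1.91 ± 0.83 and -0.60 without that library. It averaged 69.45 ± 2.63 (control), 175 ± 156 (LPS), 112 ± 56.5 (bLF) and 84.4 ± 10.1 (LPS+bLF) FPKM. The acute-phase and antimicrobial list had a median of -0.47 with 16 of 22 negative, and -0.15 without LPS replicate 1.

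Genes of LPS sensing were next compared, and 0 of them passed the test (edgeR). Cd14, the co-receptor that also binds lactoferrin, was at 6.07, 14.6 and 11.8 FPKM in control, 16.6, 15.4 and 24.9 in LPS, 10.7, 11 and 9.99 in bLF, and 11.2, 9.64 and 6.49 in LPS+bLF. LPS lay above bLF and LPS+bLF without overlap, its lowest libraries only just above the control maximum, and the interaction was -1.03 ± 0.48. Irak1, a kinase of the TLR pathway, averaged 12.7 ± 0.69 (control), 10.5 ± 2.24 (LPS), 10.9 ± 0.88 (bLF) and 12.4 ± 0.72 (LPS+bLF) FPKM with 0.43 ± 0.19. Among 34 tested genes for LPS sensing and NF-kB, 12 were positive, 1 had an unadjusted p under 0.05 and the median was -0.16. Tnf and Il1b, the inflammatory cytokines most used to follow LPS, were at 0.69 ± 0.18 (control), 1.11 ± 0.94 (LPS), 0.8 ± 0.3 (bLF) and 1.08 ± 0.28 (LPS+bLF) and 12.1 ± 6.28 (control), 17 ± 3.53 (LPS), 13.4 ± 4.79 (bLF) and 13.7 ± 1.15 (LPS+bLF) FPKM, with interactions of -0.19 ± 1.02 and -0.46 ± 0.59. Their groups overlapped throughout, and Tnf turned positive in 4 of 12 single omissions, up to 0.55, while Il1b lay between -0.89 (without control replicate 2) and -0.09 (without control replicate 1). Ccl2, the chemokine that draws monocytes, had -2.08 ± 1.39, which was -0.22 without LPS replicate 1. Its levels were low, at 1.37 ± 0.97 (control), 2.78 ± 3.29 (LPS), 1.35 ± 0.13 (bLF) and 0.7 ± 0.53 (LPS+bLF) FPKM. Cytokines as a list were split evenly (10 of 20 positive, median 0.04), and so nearly were interferon-stimulated genes (17 of 37 positive, median -0.06, between -0.32 and 0.54 under omissions). Oas1a, an RNA sensor induced by interferon, led them with -1.03 ± 0.44 and -0.67 without LPS replicate 3, followed by Oas3 with -1.11 ± 0.52. Oas1a averaged 7.19 ± 2.96 (control), 16 ± 7.22 (LPS), 11.5 ± 0.3 (bLF) and 12.6 ± 1.78 (LPS+bLF) FPKM. Oas3 was low, at 0.78 ± 0.32 (control), 1.26 ± 0.52 (LPS), 0.96 ± 0.25 (bLF) and 0.72 ± 0.047 (LPS+bLF) FPKM.

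Of the surface proteins known to bind lactoferrin, 5 of 14 tested were positive with a median of -0.17, and Asgr1 had the smallest p. Asgr1 encodes a subunit of the asialoglycoprotein receptor, best known in liver, and lies on chromosome 11 (70048909 to 70057895). It was at 5.81, 8.81 and 5.31 FPKM in control, 1.87, 1.59 and 2.05 in LPS, 7.12, 4.4 and 6.13 in bLF, and 4.71, 5.9 and 7.17 in LPS+bLF. The LPS libraries were the 3 lowest of the 12 with no overlap, and the other 3 groups shared 1 range. The geometric mean with LPS+bLF was 5.84 FPKM where added log2 effects would have given 1.63, and the interaction was 1.85 ± 0.47. The liver genes Alb and Apoa1 were at or under 0.65 and 0.23 FPKM in all libraries. The iron handling list leaned weakly positive (18 of 26, median 0.15, and -0.03 without LPS replicate 1). Its member Hmox1, the enzyme that frees iron from haem, was at 29.2, 32.8 and 38.5 FPKM in control, 263, 36.9 and 44.5 in LPS, 35.5, 34.3 and 40.7 in bLF, and 31.8, 37.4 and 31.8 in LPS+bLF, so that its value of -2.08 ± 0.93 rested on LPS replicate 1 and was -0.32 without it.

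A different shape appeared in 3 of the 12 negative genes, in which bLF alone was the highest group. Tsc22d3, the glucocorticoid-induced leucine zipper (chromosome X, 140539528 to 140600522), was at 59.5, 51.6 and 101 FPKM in control, 109.9, 88.8 and 75 in LPS, 121, 107 and 136 in bLF, and 48, 59.8 and 63.3 in LPS+bLF. The bLF libraries exceeded all control and all LPS+bLF libraries, and LPS+bLF lay under LPS, with an interaction of -1.49 ± 0.38. Bag3, a co-chaperone of HSP70, was at 38.8, 29.1 and 34.5 FPKM in control, 37.6, 37.4 and 61.5 in LPS, 60.3, 51.4 and 55.9 in bLF, and 31.5, 34.7 and 41.7 in LPS+bLF. The bLF range lay above control and above LPS+bLF, LPS overlapped it through replicate 3, and the interaction was -1.08 ± 0.29. Adamtsl4, a protein of fibrillin microfibrils that overlaps Gm52627 in the annotation, was at 28.2, 20.0 and 30.2 FPKM in control, 20.5, 26.5 and 25.4 in LPS, 35.3, 39.3 and 37 in bLF, and 22.8, 18.3 and 22.8 in LPS+bLF. Here bLF stood above all 9 other libraries, LPS and control overlapped, and the interaction was -0.72 ± 0.20. Adamts14, a protease that trims procollagen and overlaps Gm29861, followed the LPS-high shape instead, with 1.17 ± 0.1 (control), 2.74 ± 0.72 (LPS), 1.52 ± 0.55 (bLF) and 1.21 ± 0.18 (LPS+bLF) FPKM and -1.62 ± 0.45.

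The lists behind the first 2 of these genes differed in how far they depended on a library. Of 24 heat shock chaperones, 20 were negative and 3 had an unadjusted p under 0.05, with a median of -0.54, from -0.67 without LPS replicate 1 to -0.20 without LPS replicate 3. Their mean log2 CPM relative to control was 0.46 to 0.59 with bLF and -0.30 to 0.12 with LPS+bLF, without overlap, while the LPS libraries spread from -0.55 to 0.55. Hspb1, a small heat shock protein, was at 243, 364 and 315 FPKM in control, 239.7, 209 and 663 in LPS, 464, 556 and 638 in bLF, and 184, 183 and 256 in LPS+bLF, with bLF above control and LPS+bLF and LPS replicate 3 the single highest library. Its interaction was -1.69 ± 0.56 and -1.06 without LPS replicate 3. Of 21 glucocorticoid targets, 19 were negative and 7 had an unadjusted p under 0.05, with a median of -1.15 that was -0.29 without LPS replicate 1. That library's list mean was 2.0 against 0.36 to 0.49 with bLF, -0.24 to 0.32 with LPS+bLF, and -0.11 and 0.08 in the other LPS libraries. Fkbp5, a glucocorticoid-induced immunophilin, was at 35.3 FPKM in LPS replicate 1 and 1.4 to 5.51 in the other 11 libraries. Its interaction was -4.10 ± 1.39 with all libraries and -1.09 without LPS replicate 1.

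**Figure D3:**
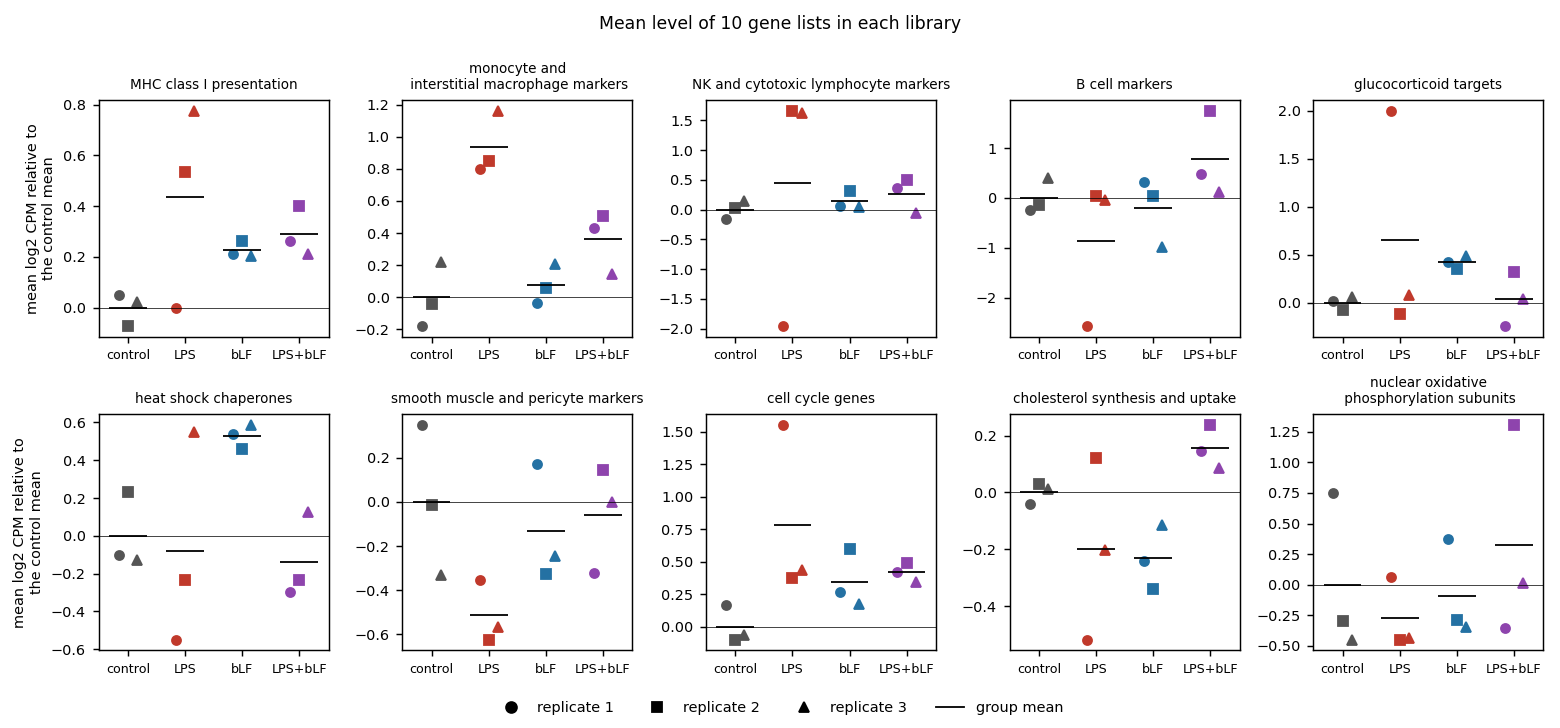
Mean log2 CPM relative to the control mean (y axes) of 10 gene lists in each library of the 4 groups (x axes), with horizontal lines at group means. LPS is the highest group for monocyte and interstitial macrophage markers in all 3 libraries, LPS replicate 1 departs from its group in the NK, B cell, glucocorticoid and cell cycle lists, and bLF lies above LPS+bLF for heat shock chaperones.

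On the positive side no single family led. Nr4a1, an orphan nuclear receptor that is an immediate-early gene of many stimuli (chromosome 15, 101253902 to 101274795), had the smallest p. Its window before 1 RefSeq transcript start (GRCm38.p6, plus strand, chr15:101266596-101266845) is shown for its repeated element, with TGACGC (here as GCGTCA, its other strand), a match to cyclic-AMP response elements, in capitals.
Nr4a1: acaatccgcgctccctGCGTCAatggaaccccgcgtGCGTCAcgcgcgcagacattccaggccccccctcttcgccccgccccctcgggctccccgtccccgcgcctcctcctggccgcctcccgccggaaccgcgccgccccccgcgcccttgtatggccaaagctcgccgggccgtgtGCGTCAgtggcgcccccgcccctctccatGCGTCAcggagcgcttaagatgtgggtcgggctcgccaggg
The 4 matches begin 234, 214, 70 and 41 bases before the start. Of the 32851 windows 6.115% hold a match and 1, this window, holds 4 or more. Because the window is shown for its repeats, that count is a description and not a measure of rarity. Nr4a1 was at 30.6, 20.9 and 24.5 FPKM in control, 12.8, 18.1 and 24 in LPS, 11.3, 11.2 and 13.7 in bLF, and 17.4, 20.5 and 18.5 in LPS+bLF. The bLF libraries were all below control and below LPS+bLF, and LPS spanned from the bLF range to the control range. LPS+bLF had a geometric mean of 18.8 FPKM against 8.5 for added log2 effects, with an interaction of 1.10 ± 0.27. The immediate-early list as a whole did not follow (7 of 21 positive, Nr4a1 and Fosb among them, median -0.08). Fosb, a subunit of AP-1, was the second member at 1.38 ± 0.97 (control), 0.53 ± 0.3 (LPS), 0.45 ± 0.19 (bLF) and 0.64 ± 0.096 (LPS+bLF) FPKM and 1.92 ± 0.81. Its groups overlapped, and control replicate 1 was its highest library at 2.42 FPKM. Without that library the Fosb value was 1.36. It was 0.77 with limma on log2(FPKM + 1) and 0.32 with limma voom and library weights.

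In 3 of the 12 positive genes LPS lay below all other libraries: Asgr1, above, and Lurap1 and Gnaz. Lurap1, a leucine-rich adaptor that overlaps 2510003B16Rik, was at 6.26, 4.16 and 3.11 FPKM in control, 1.29, 2.16 and 2.05 in LPS, 2.73, 2.66 and 2.57 in bLF, and 2.99, 4.38 and 3.13 in LPS+bLF. Every LPS library was under every other library, bLF lay under control and LPS+bLF, and the interaction was 1.69 ± 0.43. Gnaz, a G protein alpha subunit whose locus overlaps Rsph14, was at 1.58, 1.6 and 1.58 FPKM in control, 0.56, 1.00 and 0.88 in LPS, 1.48, 1.13 and 1.67 in bLF, and 1.49, 1.51 and 1.78 in LPS+bLF. The LPS libraries were the 3 lowest, the remaining groups overlapped, and the interaction was 1.12 ± 0.35, and 0.62 on log2(FPKM + 1), a scale that understates low genes. Rpp38, a subunit of ribonuclease P whose locus overlaps Nmt2 and Acbd7, averaged 7.96 ± 1.13 (control), 4.64 ± 2.23 (LPS), 5.12 ± 0.29 (bLF) and 7.33 ± 0.26 (LPS+bLF) FPKM with 1.21 ± 0.36, with both LPS and bLF below control and LPS+bLF back in the control range. LPS replicate 1 was at 2.07 FPKM against 6.08 and 5.76 in its groupmates, and without it the interaction was 1.00.

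In 4 others LPS+bLF was the group farthest from the mean of the other 3, above them, though in 3 of the 4 its range overlapped that of control. Serpinb1a, an inhibitor of neutrophil elastase, was at 6.58, 7.01 and 8.84 FPKM in control, 4.1, 6.93 and 6.7 in LPS, 6.31, 4.85 and 5.55 in bLF, and 8.27, 13.2 and 11 in LPS+bLF. The LPS+bLF libraries exceeded all LPS and bLF libraries and overlapped control through replicate 1, and the interaction was 1.33 ± 0.33. Sdhaf1, an assembly factor of succinate dehydrogenase, was at 26.7, 27.1 and 26.5 FPKM in control, 16.1, 24.5 and 22.5 in LPS, 21.7, 19.4 and 23.4 in bLF, and 27.4, 36 and 28.1 in LPS+bLF. LPS+bLF exceeded every other library, control came next with little spread, and the interaction was 0.84 ± 0.24. Mrps14, of the small subunit of the mitochondrial ribosome, averaged 20.2 ± 2.61 (control), 16.3 ± 1.51 (LPS), 16.4 ± 2.03 (bLF) and 21.7 ± 2.55 (LPS+bLF) FPKM with 0.69 ± 0.22. Tspan32, a tetraspanin of blood cells, averaged 4.69 ± 1.34 (control), 2.57 ± 0.97 (LPS), 3.34 ± 1.01 (bLF) and 5.96 ± 2.64 (LPS+bLF) FPKM with 1.70 ± 0.52, its highest library being LPS+bLF replicate 2 at 8.93 FPKM. LPS+bLF overlapped control in both genes, and bLF too in Tspan32. LPS+bLF replicate 2 was the highest library in all 4 genes. Without it the interactions were 1.15 (Serpinb1a), 0.67 (Sdhaf1), 0.58 (Mrps14) and 1.26 (Tspan32), the lowest of any single omission.

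Control was the highest group for Lmod1, Tsku and Myh11. Myh11, whose myosin contracts smooth muscle, was at 38, 30.8 and 21.8 FPKM in control, 10.2, 13.1 and 14.8 in LPS, 21.3, 16.9 and 20.4 in bLF, and 17.9, 17.3 and 13.8 in LPS+bLF. Every treated library was below every control library, LPS was lowest on average and overlapped LPS+bLF, and the interaction was 0.99 ± 0.30. Lmod1, a leiomodin that nucleates actin in smooth muscle, averaged 3.88 ± 1.75 (control), 1.73 ± 0.42 (LPS), 2.26 ± 0.62 (bLF) and 2.78 ± 0.16 (LPS+bLF) FPKM with 1.45 ± 0.41, and Tsku, a secreted leucine-rich protein, 5.18 ± 1.06 (control), 2.15 ± 0.85 (LPS), 2.84 ± 0.6 (bLF) and 3.19 ± 0.42 (LPS+bLF) FPKM with 1.47 ± 0.43. In these 3 genes LPS+bLF was below the control mean, and the positive value stands for a level above the one at which both log2 effects, each negative, would add. Of 24 smooth muscle and pericyte markers, 21 were positive and 3 had an unadjusted p under 0.05, with a median of 0.45, from 0.30 without LPS+bLF replicate 2 to 0.81 without LPS replicate 1. Their mean log2 CPM relative to control was -0.62 to -0.35 with LPS, -0.33 to 0.17 with bLF and -0.32 to 0.14 with LPS+bLF. LPS was the lowest group without overlap, by a margin that LPS replicate 1 made narrow.

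**Figure D4:**
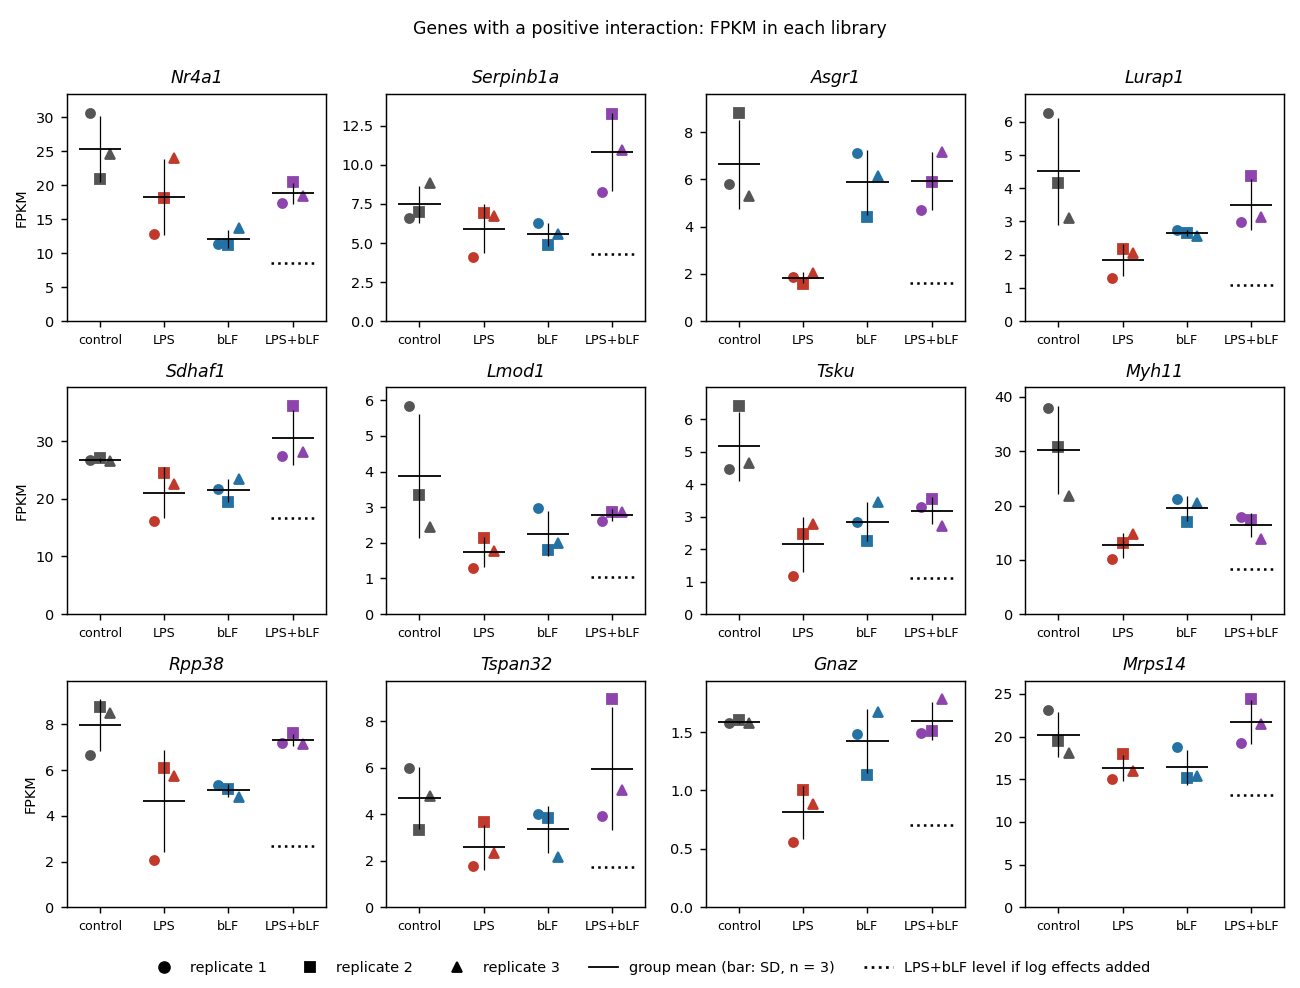
FPKM (y axes, from 0) in each library of the 4 groups (x axes) for the 12 genes with the smallest p among positive interactions; horizontal lines are group means with SD bars (3 mice), and dotted lines are the LPS+bLF level if log2 effects added. LPS is lowest without overlap for Asgr1, Lurap1 and Gnaz, bLF is lowest for Nr4a1, control is highest for Lmod1, Tsku and Myh11, and LPS+bLF lies above the dotted line in all 12.

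Matrix and proliferation lists leaned negative. In the extracellular matrix and fibroblast list 30 of 41 were negative (median -0.27, from -0.37 to -0.21 under omissions) with 3 at an unadjusted p under 0.05. Col1a1, the main chain of type I collagen, was at 26.2, 15.7 and 25.9 FPKM in control, 64.4, 29.9 and 32.5 in LPS, 29.7, 27.3 and 19.6 in bLF, and 25.1, 21 and 19 in LPS+bLF. LPS lay above every other library, most of all in replicate 1, and the value of -1.24 ± 0.49 was -0.63 without that library. Col4a2, a basement membrane collagen chain, averaged 83.1 ± 15.1 (control), 109 ± 8.33 (LPS), 93.8 ± 8.04 (bLF) and 81.1 ± 13.4 (LPS+bLF) FPKM with -0.65 ± 0.27. In the cell cycle list 29 of 30 were negative with a median of -0.85, and -0.29 without LPS replicate 1. The median was -0.42 with limma on log2(FPKM + 1), and -0.02 over the 9 members averaging at least 5 FPKM. Rrm2, a subunit of ribonucleotide reductase, was even across the LPS group, at 0.64, 0.51 and 0.97 FPKM in control, 2.17, 2.04 and 1.93 in LPS, 1.04, 1.45 and 0.78 in bLF, and 1.13, 1.38 and 0.87 in LPS+bLF, with LPS above all other libraries and -1.53 ± 0.49. Birc5, the mitotic protein survivin, was at 75.3 FPKM in LPS replicate 1 against 9.83 and 8.42 in its groupmates, and its -2.77 ± 1.11 was -0.78 without it.

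B cell markers were positive in 18 of 18 tested genes, 4 of them at an unadjusted p under 0.05, with a median of 1.65. Their mean log2 CPM relative to control was -2.57 in LPS replicate 1 and 0.04 and -0.04 in the other LPS libraries, 0.33, 0.04 and -0.99 with bLF, and 0.48, 1.74 and 0.12 with LPS+bLF. Without LPS+bLF replicate 2 the median was 0.92, and without LPS replicate 1 it was 1.21. Leaving out both libraries, an omission added after seeing the data, gave 0.57. Cd79b, a signalling chain of the B cell receptor, was at 25.1, 19.1 and 23.9 FPKM in control, 13.2, 24.5 and 20.4 in LPS, 25.8, 25 and 9.55 in bLF, and 34.6, 63.1 and 33.2 in LPS+bLF, with LPS+bLF above every other library, and had 1.36 ± 0.50. Cr2, complement receptor 2, had 2.42 ± 1.02, and 1.05 without LPS+bLF replicate 2, its highest library at 3.51 FPKM. Its levels were near the filter of 0.5 FPKM outside LPS+bLF. They averaged 0.4 ± 0.18 (control), 0.29 ± 0.085 (LPS), 0.4 ± 0.23 (bLF) and 1.6 ± 1.66 (LPS+bLF) FPKM. With limma on log2(FPKM + 1) the Cr2 value was 0.83. The mean of the fat list was also highest in that library, at 4.40, and the part of such tissue in the B cell values was not tested.

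Cholesterol synthesis and uptake was positive in 19 of 22 tested genes, 4 of them at an unadjusted p under 0.05, with a median of 0.40 that stayed between 0.34 and 0.58 under every single omission. Its mean log2 CPM relative to control was 0.09 to 0.24 with LPS+bLF, -0.34 to -0.11 with bLF, and -0.52, 0.12 and -0.20 with LPS, so LPS+bLF and bLF did not overlap. Fdft1, squalene synthase, was at 50.8, 24.3 and 27.7 FPKM in control, 30.1, 30.2 and 18.1 in LPS, 26.4, 23.6 and 23.8 in bLF, and 34.2, 66.2 and 47.1 in LPS+bLF, with LPS+bLF above LPS and bLF and 1.34 ± 0.46. Fdps, which makes farnesyl diphosphate, averaged 52.7 ± 8.19 (control), 45.1 ± 17.5 (LPS), 38.4 ± 1.39 (bLF) and 53.9 ± 3.64 (LPS+bLF) FPKM with 0.72 ± 0.29, its bLF libraries under every control and LPS+bLF library. Insig1 (1.56 ± 0.66) and Sqle (0.86 ± 0.35), a regulator and an enzyme of the same pathway named after their values were seen, were the other members at an unadjusted p under 0.05.

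The medians farthest from 0 belonged to genes of fat and skeletal muscle, tissues that lie next to the lung. Brown and white fat genes had a median of 6.56 (18 of 18 positive), which was 0.06 without LPS+bLF replicate 2. Skeletal muscle genes had 3.96 (14 of 14 positive), which was 0.58 without LPS+bLF replicate 3. Cfd, the adipocyte protease adipsin, was at 2373, 6.42 and 65.3 FPKM in control, 0.11, 0.55 and 3.91 in LPS, 1850.5, 10.3 and 9.31 in bLF, and 1.33, 7090.3 and 3.44 in LPS+bLF, high in 1 library of each group but LPS. Acta1, skeletal actin, was at 1579 FPKM in LPS+bLF replicate 3 and at most 19.0 elsewhere. Nuclear genes for oxidative phosphorylation, which fat and muscle also express, were positive in 38 of 39 with a median of 0.89 and 1 at an unadjusted p under 0.05, and 0.21 without LPS+bLF replicate 2. Cox7a2 and Ndufa4, subunits of cytochrome oxidase, had 1.12 ± 0.43 and 1.12 ± 0.52, and 0.69 and 0.55 without that library. The part of neighbouring tissue in these values was not tested beyond the omissions.

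**Figure D5:**
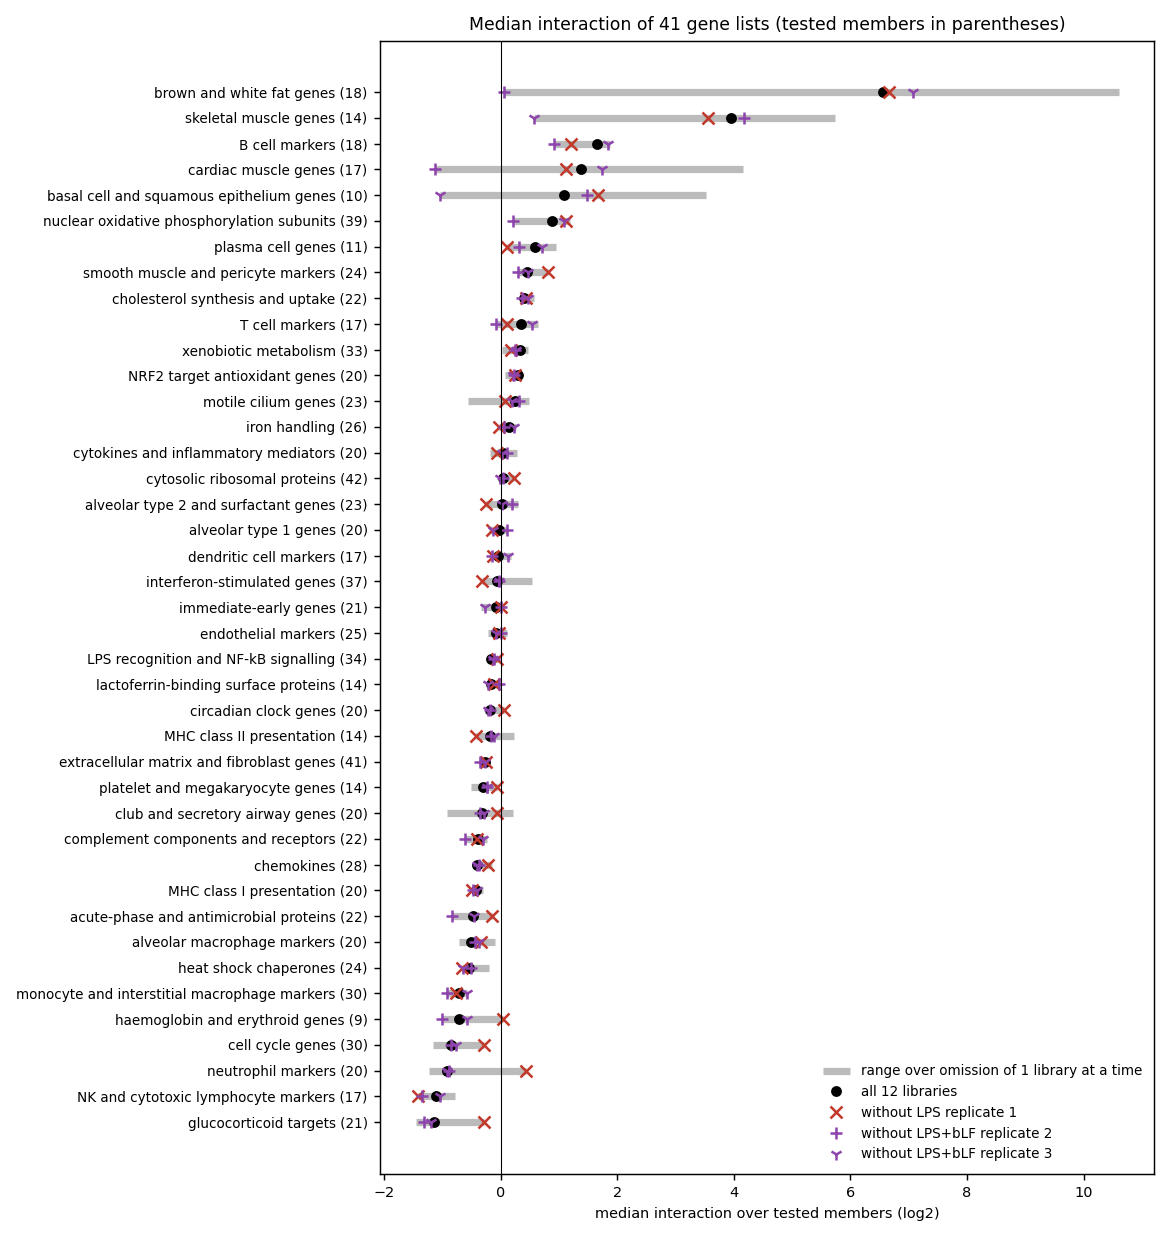
Median interaction (log2, x axis) over the tested members of 41 gene lists (y axis), with black points for all 12 libraries, grey bars for the range over omission of 1 library at a time and coloured marks for 3 omissions. Of the 41 medians 23 keep their sign under every single omission; the bars are widest for fat, muscle and squamous genes and narrow for MHC class I, monocyte and interstitial macrophage, and cholesterol genes.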

How the data were processed

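Polyadenylated lung RNA of 12 mice was sequenced, 1 library per mouse, 4 groups of 3. Per the file headers, the deposited values are counts and FPKM by gene. Since 4.1 to 5.9% of values per library were not whole, the deposited counts were taken to be estimated counts that the authors made by assigning reads to genes. HISAT2 2.1.0, RSEM 1.2.8 and mm10 are named in the submitters' processing notes, with no role or order; the annotation and strandedness are not given in the sources used here. FPKM as deposited by the authors set the filter (at least 0.5 in 3 or more libraries) and the levels shown.

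Counts were rounded and fitted with edgeR 4.0.16 (R 4.3.3): TMM factors, 4 group means, quasi-likelihood F test with 8 residual degrees of freedom, two-sided, Benjamini-Hochberg over 13735 genes, threshold 0.05. Log2 fold changes come from this fit, their SE from its F statistic, and level plots of lists use log2 CPM with a prior count of 1. The common biological coefficient of variation was 0.352. The level at which log2 effects add is the LPS geometric mean times the bLF geometric mean over that of control. Alternatives were upper-quartile scaling, library size alone, DESeq2 1.42.0, limma 3.58.1 on log2(FPKM + pseudocount) with pseudocounts of 1, 0.1 and 5, limma voom without and with library weights, other filters, a robust fit, a replicate block and omission of each library. Omission of LPS replicate 1 together with LPS+bLF replicate 2 or 3 was chosen after seeing the data.

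The rule for named genes was every called gene, or else the 12 with the smallest p on each side among genes averaging 1 FPKM or more, the 2 members with the smallest p of each list described, and Tnf, Il1b, Ccl2, Saa3, Ltf and Ms4a7. Any other gene is marked in the text where it was picked with its values known. The contrast, the 41 gene lists (951 genes, 938 in the files, 860 tested) and the rules were chosen with earlier results of these data known. Lists are described by counts and medians without a test. Gene IDs were matched to the RefSeq table of GRCm38.p6 for 17869 of 17920 genes, of which 14139 have a promoter window. In each of the 66 pairs of libraries at most 2.92% of the genes with a count in either had the same count. Where nothing in the labels says otherwise, p-values measure the spread between these mice.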

Additional observations from a re-analysis of the deposited data

How the results depend on the processing

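All 24 genes with the smallest p kept their sign in each of 27 settings (639 of 639 values). Since these genes were picked for a small p in the same libraries, their signs could hardly change. The number of genes called was 0 with all settings except DESeq2, with 1, and the added omission of LPS replicate 1 and LPS+bLF replicate 2, with 2. Genes at an unadjusted p under 0.05, 384 with all libraries, numbered 255 with limma at a pseudocount of 0.1, 668 with library weights, 236 at a mean of at least 5 FPKM, and 206 to 757 when 1 library was left out; the cause was not tested, apart from the smaller number of genes at the higher filter. Tnf, at -0.19, was 0.0018 and 0.35 with limma at pseudocounts of 1 and 0.1, 0.40 with voom, 0.24 with the replicate block and -0.93 to 0.55 over all omissions. Ccl2 ranged over omissions from -2.93 to 0.14, the latter without LPS replicate 1 and LPS+bLF replicate 3. Saa3 was 0.85 with library weights, -3.99 to 2.86 over single omissions, and 3.18 and 1.35 in the added omissions with LPS+bLF replicate 3 and 2. List medians changed sign under at least 1 single omission in 18 of 41 lists. With limma on log2(FPKM + 1) the medians of interferon-stimulated genes, B cell markers, neutrophil markers, acute-phase proteins and chemokines were 0.17, 0.85, -0.42, -0.13 and -0.13.

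Replicate numbers pair the groups by number alone: deviations of same-numbered libraries correlated at -0.69 to 0.57, over 0.1 in 5 of 18 pairs, and 2 of 12 libraries correlated best with their own number. With the replicate block 0 genes were called and 259 had an unadjusted p under 0.05. Genes under about 0.18 CPM cannot be told from 0.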

Other observations

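Lists not described above gave the following values, none with a called gene. Motile cilium genes were positive in 19 of 23 tested members with a median of 0.24, which was -0.56 without control replicate 2, the library with the highest Foxj1, a master regulator of ciliated cells, at 51.5 FPKM. Club and secretory airway genes had a median of -0.33 (7 of 20 positive), which was -0.92 without control replicate 2 and 0.22 without bLF replicate 1. Alveolar type 1 and type 2 genes had medians of -0.03 and 0.02, and endothelial markers -0.09 with 8 of 25 positive. Cytosolic ribosomal proteins had a median of 0.04 with 24 of 42 positive. Xenobiotic metabolism had 0.33 with 23 of 33 positive and NRF2 target antioxidant genes 0.29 with 15 of 20 positive, and these fell to 0.03 and 0.08 without control replicate 2. Cardiac muscle genes had 1.38 (16 of 17 positive), from -1.13 without LPS+bLF replicate 2 to 4.15 without bLF replicate 1. Basal cell and squamous epithelium genes had 1.09 (8 of 10 positive), from -1.04 without LPS+bLF replicate 3 to 3.53 without bLF replicate 1. Plasma cell genes had 0.60 (9 of 11 positive) and 0.11 without LPS replicate 1. Haemoglobin and erythroid genes had -0.71 (2 of 9 positive) and 0.04 without LPS replicate 1. Platelet and megakaryocyte genes had -0.30 (3 of 14 positive), which was -0.06 without LPS replicate 1, dendritic cell markers -0.05 (8 of 17 positive), and circadian clock genes -0.18 (7 of 20 positive), which was 0.06 without LPS replicate 1. Chemokines had -0.41 with 12 of 28 positive, between -0.48 and -0.14 under single omissions.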
